A study of Mus musculus with 7 samples.

Results

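Lysozyme is an antibacterial enzyme that cuts the sugar backbone of bacterial peptidoglycan. The mouse carries adjacent genes for it, Lyz1 and Lyz2. Lyz1 is known as the lysozyme gene of Paneth cells, secretory cells of the small-intestinal crypt bottom that release it into the crypt together with alpha-defensins. Lyz2 is known as the lysozyme gene of macrophages and neutrophils. Both genes were taken by name, as 2 of the 52550 genes in the count tables.

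RNA came from Paneth cells sorted by CD24 and side scatter from small-intestinal crypts of C57BL/6J mice carrying Lgr5-EGFP-IRES-CreERT2, a reporter and inducible recombinase placed at the Lgr5 stem cell gene, in both groups. The 3 water libraries came from mice of 12, 12 and 10 weeks kept on drinking water. The 4 DSS libraries came from mice of 12, 10, 10 and 10 weeks given 3% dextran sulfate sodium, which damages the lining of the gut, for 7 days and killed 3 days after its removal. Cells positive for TER119, CD31 or CD45, marks of red, endothelial and white blood cells, were gated out, and CD117, the Kit protein, was stained. The labels do not state that each library came from a separate animal, and p-values therefore measure only how these libraries vary, which may be technical. Paneth granule genes, comprising lysozyme, alpha-defensins and 12 others, held 33.0% to 35.1% of counts in water and 21.6% to 30.8% in DSS. Total counts ran from 23175708 to 32451653, and no 2 libraries of a group agreed within sampling noise (the lowest chi-square divided by its degrees of freedom was 14.2).

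Lyz1 (ENSMUSG00000069515.6) occupies chromosome 10, minus strand, from 117287797 to 117292868 in mm10. Lyz2 (ENSMUSG00000069516.8) lies beside it on the same strand from 117277331 to 117282321, with 5475 bases between them. Each has 4 exons, and a count is the sum of reads over those exons, 1263 bases in Lyz1 and 1316 in Lyz2, so coding and untranslated parts are counted together. No other gene of the count tables overlaps the stretch that holds both genes.

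The first 300 bases of both coding sequences are shown because their likeness sets how well reads can be told apart. They are read from GENCODE release M21 transcripts on GRCm38, 5′ to 3′, and capitals mark the bases at which the genes differ.
Lyz1: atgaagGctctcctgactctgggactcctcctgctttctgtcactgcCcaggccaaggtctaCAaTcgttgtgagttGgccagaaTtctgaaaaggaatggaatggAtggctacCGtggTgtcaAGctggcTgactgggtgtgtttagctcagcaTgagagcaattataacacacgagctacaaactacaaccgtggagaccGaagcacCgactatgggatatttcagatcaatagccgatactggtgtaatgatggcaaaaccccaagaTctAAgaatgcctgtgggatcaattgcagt
Lyz2: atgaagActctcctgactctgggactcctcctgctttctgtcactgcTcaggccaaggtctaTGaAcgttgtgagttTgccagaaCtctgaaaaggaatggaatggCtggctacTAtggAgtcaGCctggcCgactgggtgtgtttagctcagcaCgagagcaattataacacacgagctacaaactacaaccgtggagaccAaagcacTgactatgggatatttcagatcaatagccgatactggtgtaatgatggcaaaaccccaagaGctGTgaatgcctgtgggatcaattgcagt
The whole coding sequences differ at 22 of 447 bases, with 95.1% identity, and the longest identical stretch is 118 bases. The 3′ untranslated regions, 786 bases in Lyz1 and 790 in Lyz2, were 95.6% identical. Of all windows of 50 bases in the Lyz1 transcript, 16.1% also occur in Lyz2. That share was 2.06% for windows of 100 bases and 0% for windows of 150 bases. None of the windows of 50 bases occurs in a transcript of any other gene. The read length is not given in the sources used here, so each gene's own value carries an uncertainty that the sum of both does not.

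The promoter windows are shown because the counts of both genes moved in parallel across the libraries. Whether promoter likeness has a part in that was not tested. They hold 250 bases before and 50 bases after the RefSeq start on GRCm38.p6, minus strand, at chr10:117292819-117293118 for Lyz1 and chr10:117282223-117282522 for Lyz2, and capitals mark bases that differ or have no partner in the alignment.
Lyz1: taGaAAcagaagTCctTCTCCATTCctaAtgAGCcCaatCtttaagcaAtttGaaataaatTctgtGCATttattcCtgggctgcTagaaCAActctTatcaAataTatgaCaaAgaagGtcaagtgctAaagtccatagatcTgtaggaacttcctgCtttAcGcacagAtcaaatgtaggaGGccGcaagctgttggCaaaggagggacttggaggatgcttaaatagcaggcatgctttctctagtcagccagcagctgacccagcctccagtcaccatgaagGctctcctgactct
Lyz2: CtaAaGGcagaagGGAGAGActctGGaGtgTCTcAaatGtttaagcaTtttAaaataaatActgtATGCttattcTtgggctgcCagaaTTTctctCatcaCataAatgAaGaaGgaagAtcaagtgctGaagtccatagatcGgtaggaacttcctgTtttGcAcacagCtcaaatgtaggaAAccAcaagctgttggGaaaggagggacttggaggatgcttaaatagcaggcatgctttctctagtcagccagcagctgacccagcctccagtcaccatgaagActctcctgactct
Identity was 81.2% over the whole alignment, 99.0% over the last 100 bases and 61.5% over the first 100 bases. The last 100 bases include the 50 after the RefSeq start, which reach into the coding sequence. The first Lyz2 exon used for counting begins upstream of that start, at 117282321. Nearly all of the last 100 bases of the Lyz2 window are therefore counted transcript. Motif positions are given from the RefSeq start. Neither window holds TATAAA, found in 13.6% of 32851 promoter windows on either strand, CTTTGA (16.0%), the core of the T-cell factor motif, or GAGGAA (28.3%), a PU.1-like motif. GAGGAA was the only PU.1-like form searched, so its absence says nothing of related forms. The C/EBP-like motif TTNNGNAA (40.7%) occurs in each window once, starting 209 bases before the start in Lyz1 and 55 bases before it in Lyz2. The E-box CANNTG (72.3%) occurs in both windows starting 129 and 78 bases before and 6 bases after the start, and in Lyz2 also 217 bases before it. CCAAT (37.4%) occurs 216 bases before the start in Lyz1 and not in the Lyz2 window. No match overlaps that of another motif.

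Lyz1 had the highest count of any gene in all 7 libraries. Its level in CPM, counts scaled to 1e6 per library with TMM factors, was 101489, 108137 and 99777 in water 1 to 3. In DSS 1 to 4 it was 77879, 54420, 38998 and 40791 CPM. Every DSS library lay below every water library, with DSS 1 closest to water and DSS 3 lowest. The water mean was 103134 ± 4416 CPM (SD, n = 3), against a DSS mean of 53022 ± 17945 CPM (SD, n = 4). The log2 change of DSS relative to water was -0.96 ± 0.27 (SE from the fit).

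Lyz2 was the gene with the 12th or 13th highest count in water and the 16th to 18th in DSS. Its level was 9946, 9947 and 10236 CPM in water 1 to 3. In DSS 1 to 4 it was 7083, 5260, 3753 and 4149 CPM. The DSS libraries stood in the same order as for Lyz1, and the groups did not overlap. The water mean was 10043 ± 167 CPM (SD, n = 3), against 5061 ± 1491 CPM after DSS (SD, n = 4), with a log2 change of -0.99 ± 0.21.

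**Figure D1:**
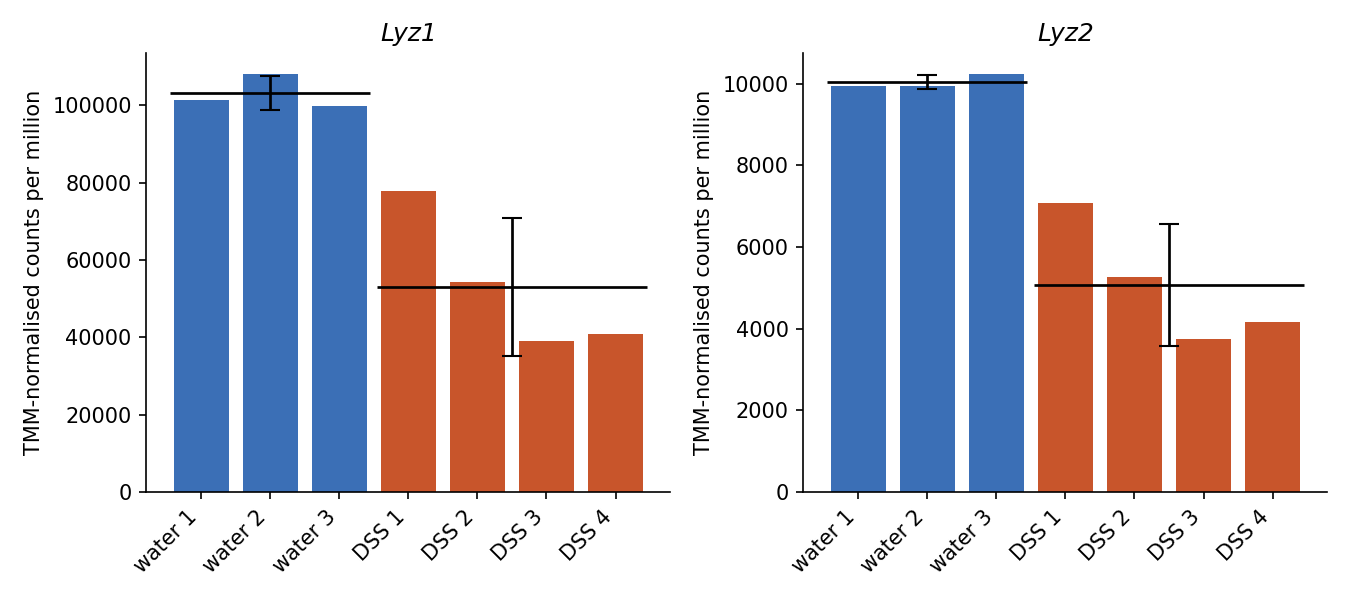
TMM-normalised CPM (y axis) of Lyz1 and Lyz2 in each library (bars), with group means (lines) and SD (error bars, n = 3 water and n = 4 DSS). All 4 DSS bars are below all 3 water bars for both genes, and the DSS bars run in the order DSS 1, DSS 2, DSS 4, DSS 3 from high to low.

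Neither gene passed the edgeR quasi-likelihood test over all 17449 genes, with Benjamini-Hochberg adjusted p of 0.174 for Lyz1 and 0.138 for Lyz2. That test called 0 genes, or 0% of those tested, at an adjusted p under 0.05, and 2742 genes, or 15.7%, at an unadjusted p under 0.05 (7.35% lower in DSS). The unadjusted p was 0.00603 for Lyz1 and 0.00114 for Lyz2, the 606th and 129th smallest of all genes. DESeq2 called both as lower in DSS, with adjusted p of 0.0273 for Lyz1 and 2.84e-05 for Lyz2, where it called 1.83% of 35076 genes, 0.844% as lower. All of its calls, 346 higher and 296 lower, were among the 17449 genes tested by edgeR. The 35076 include genes that DESeq2 gave no adjusted p, such as Nod2, and could not call. Its share called among genes that it could call is therefore above 1.83%. edgeR without a low-count filter called both genes among 1.26% of 35081 genes, 0.573% as lower. Groups that did not overlap, with DSS below water, were seen for 7.52% of the 17449 genes. limma-voom with quality weights called 0 genes (2963 at an unadjusted p under 0.05), and both lysozyme genes had an adjusted p of 0.117. The summed counts of both genes, fitted as 1 gene, changed by -0.96 ± 0.27 with an edgeR adjusted p of 0.170.

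The size of the change was larger in some DSS libraries than in others. Relative to the mean log2 level in water, Lyz1 lay at -0.40, -0.92, -1.40 and -1.34 in DSS 1 to 4. Lyz2 lay at -0.50, -0.93, -1.42 and -1.28 in those libraries. From the lowest to the highest library, Lyz1 CPM spanned a ratio of 2.00 within DSS and 1.08 within water. Without DSS 1, which came from the only 12-week mouse on DSS, both genes passed edgeR, at -1.20 ± 0.18 for Lyz1 (adjusted p = 0.0389) and -1.19 ± 0.15 for Lyz2 (adjusted p = 0.0352), where 1.75% of genes were called, 0.779% as lower. In bulk samples, fewer Paneth cells in the sort and less lysozyme RNA per cell cannot be told apart.

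Age, the RNA isolation day and a number in the file names, whose meaning is not given and which is called the run field here, differed between libraries. With age as a covariate the log2 changes were -0.82 ± 0.25 for Lyz1 and -0.88 ± 0.20 for Lyz2 (edgeR adjusted p of 0.413 and 0.388). Among 10-week mice alone, 3 on DSS against water 3, they were -1.16 ± 0.33 and -1.22 ± 0.24 (edgeR adjusted p of 0.372 and 0.301), with the single water library assumed to vary like the others. Libraries with 6 in the run field, the 3 water libraries and DSS 4, gave -1.35 ± 0.10 and -1.28 ± 0.10, with adjusted p = 0.0409 for both genes, where 0.0495% of genes were called, 0.033% as lower. There DSS 4 is the single DSS library and is assumed to vary like the water libraries, whose spread was smaller than that of DSS, so this standard error and p do not cover the spread between DSS libraries. The RNA isolation day was given as 14, 14 and 21 for water 1 to 3 and as 9, 16, 16 and 24 for DSS 1 to 4. Water 1 and water 2 thus share a day and an age, and so do DSS 2 and DSS 3. The edgeR and permutation tests nevertheless treat all 7 libraries as independent. No RNA isolation day held both groups, so isolation day and treatment cannot be told apart.

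**Figure D2:**
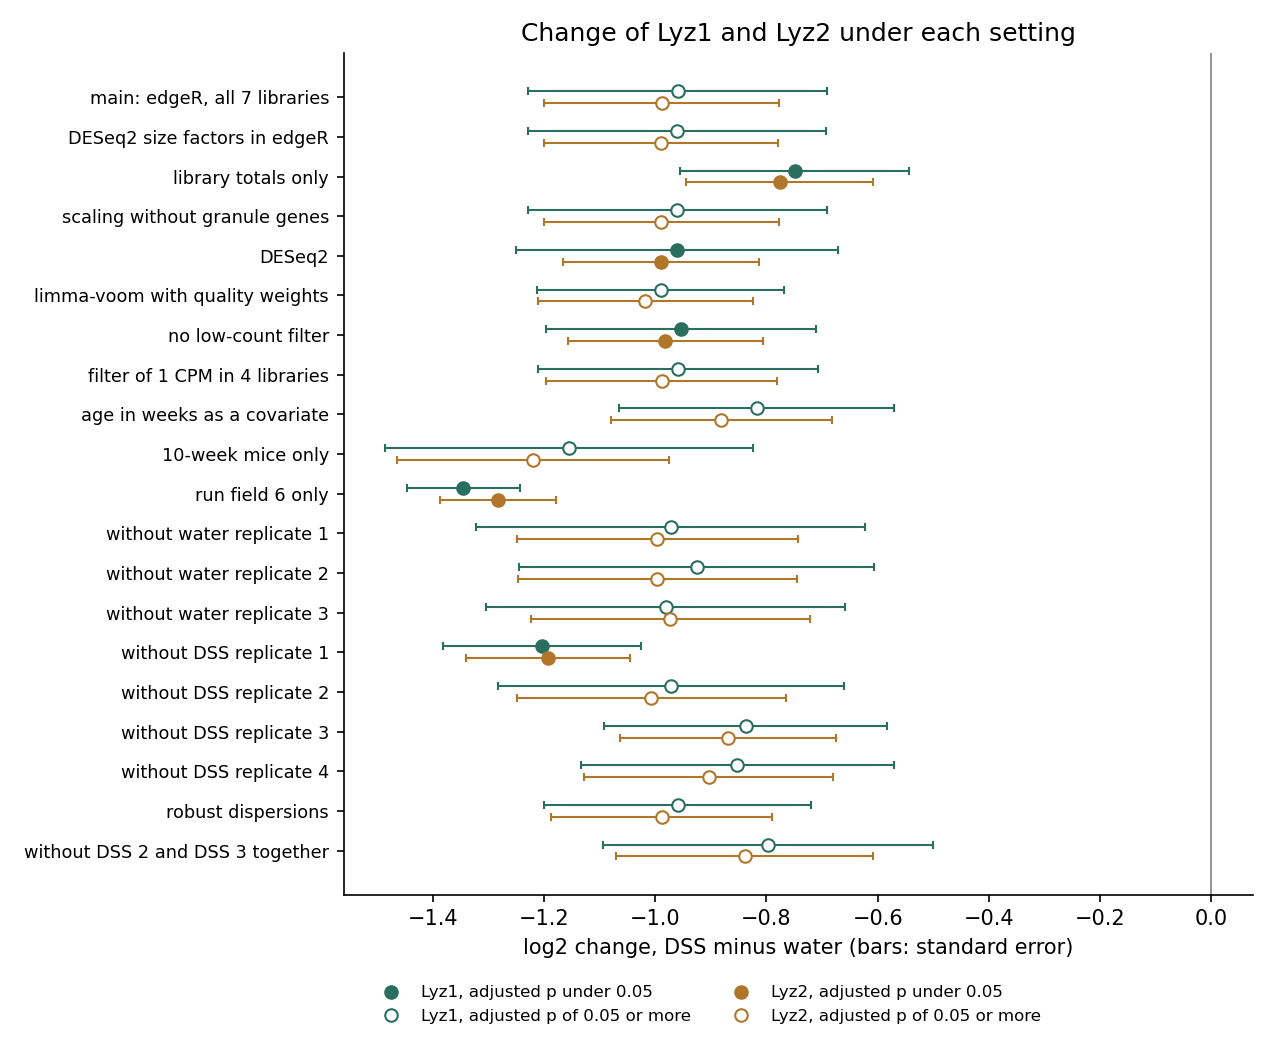
The log2 change of DSS relative to water (x axis, error bars the standard error) for Lyz1 and Lyz2 under the main test and each alternative setting. Filled points have an adjusted p under 0.05; all points lie below 0, between -1.35 and -0.75, and 5 of the 19 alternatives are filled for each gene, among them the run field 6 fit with its single DSS library.

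As a share of all counts, Lyz1 and Lyz2 together made up 10.2%, 10.6% and 10.1% in water 1 to 3. In DSS 1 to 4 they made up 8.32%, 6.25%, 4.89% and 5.05%. The mean share was 10.3% ± 0.257 on water (SD, n = 3), against 6.13% ± 1.59 after DSS (SD, n = 4), a difference of -4.19 percentage points. The Lyz1 share alone had a 95% Wilson interval of 9.28% to 9.30% in water 1 and 4.45% to 4.47% in DSS 3. These intervals cover counting error only. On the log2 scale the lysozyme share differed by -0.79 (water SD 0.04, n = 3, and DSS SD 0.35, n = 4), with all 4 DSS libraries below all water libraries. The exact permutation test over the 35 splits, two-sided, gave p = 0.0571, where 35 splits allow no p below 0.0286, and 0.0762 after Benjamini-Hochberg adjustment over the 4 tests of this family.

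The ratio of Lyz1 to Lyz2 was nearly level across libraries. Per base of exon, Lyz1 counts were 10.6, 11.3 and 10.2 times Lyz2 counts in water 1 to 3. In DSS 1 to 4 the ratio per length was 11.5, 10.8, 10.8 and 10.2. The groups overlapped, with means of 10.7 ± 0.589 (SD, n = 3) on water against 10.8 ± 0.496 (SD, n = 4) after DSS. The log2 ratio of counts differed by 0.02 between groups, within SDs of 0.08 in water and 0.07 in DSS, and the exact permutation test gave p = 0.657. The fold between the highest and lowest library was 2.77 for Lyz1 CPM over all 7 libraries and 1.13 for the ratio. Lyz2 held between 8.34% and 9.30% of the lysozyme counts. If reads of 50 bases from windows shared by both genes were divided evenly, 8.03% of Lyz1 reads would be counted for Lyz2, against 1.03% for reads of 100 bases and 0% for reads of 150 bases. How much of the Lyz2 count came from Lyz1 transcripts was not tested, and its level and its parallel change are therefore uncertain.

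Lysozyme was also lower relative to the other granule genes. Alpha-defensins are small antimicrobial peptides stored in the same granules. The set used here is every gene symbol starting with Defa, pseudogenes (Defa-ps) included. These genes held 16.6%, 18.2% and 16.9% of the counts of water 1 to 3. Their share was 16.2%, 13.2%, 12.2% and 12.2% for DSS 1 to 4. The ratio of lysozyme to alpha-defensin counts was 0.615, 0.583 and 0.601 in water 1 to 3. In DSS 1 to 4 it was 0.515, 0.474, 0.400 and 0.415, below water in every library. On the log2 scale it differed by -0.42, with SDs of 0.04 in water (n = 3) and 0.17 in DSS (n = 4), and the exact permutation test gave p = 0.0571 (adjusted p = 0.0762). This ratio does not depend on how libraries are scaled.

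Against 12 other Paneth granule genes, the ratio of lysozyme counts was 1.63, 1.68 and 1.47 in water 1 to 3. In DSS 1 to 4 it was 1.32, 0.847, 1.09 and 1.16, again below water in every library. The log2 difference was -0.55 (SDs of 0.10 and 0.27, n = 3 and 4), with an exact permutation p of 0.0571 (adjusted p = 0.0762). The 12 genes do not weigh equally in this ratio, because most of their sum was Itln1, at 46447 CPM on water and 29364 CPM after DSS. Together the 12 held 7.38% of counts in DSS 2, above the 6.26% to 6.88% of the water libraries, and 4.36% to 6.30% in the other DSS libraries. The mean share of all these granule genes differed by -8.84 percentage points, of which lysozyme made up 47.4%, alpha-defensins 42.9% and the 12 other genes 9.70%. The last part was 15.4% without DSS 2, 6.25% without DSS 3 and 5.68% without DSS 4, while that of lysozyme stayed between 45.1% and 50.2% when any 1 library was left out.

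**Figure D3:**
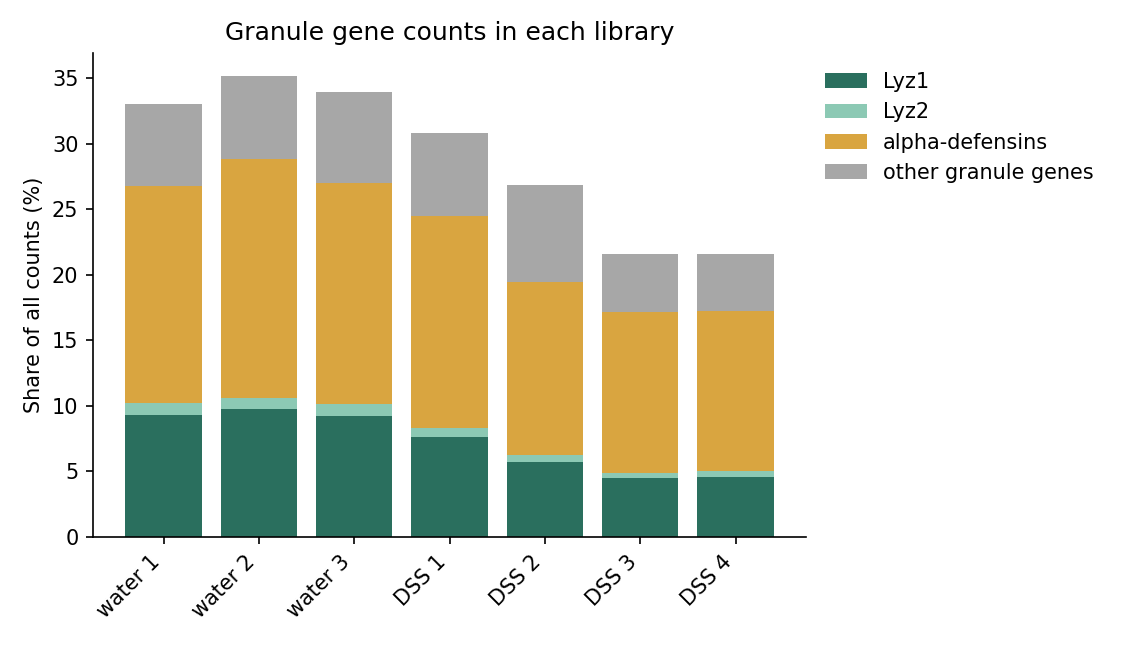
Share of all counts (y axis, percent) held by Lyz1, Lyz2, the alpha-defensins and 12 other Paneth granule genes in each library. The lysozyme part is 10.1% to 10.6% in water and 4.89% to 8.32% in DSS.

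**Figure D4:**
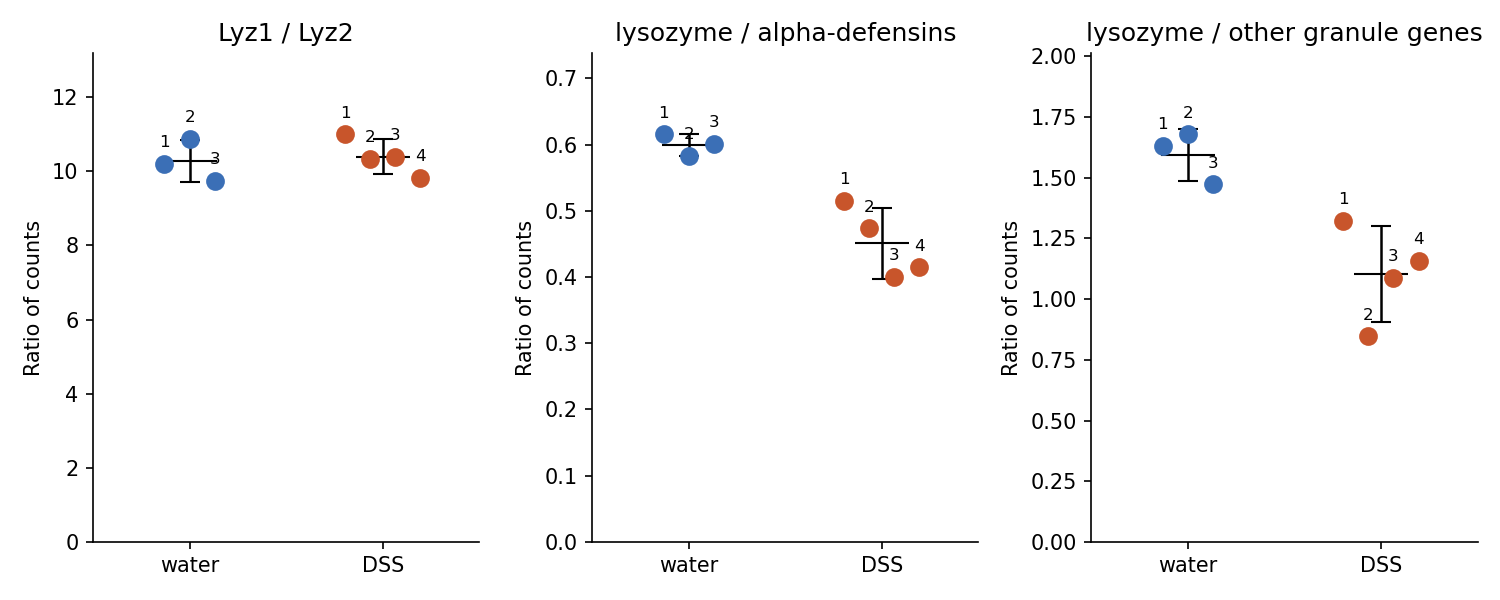
Ratios of counts within each library (points, numbered by replicate) with group means and SD (lines and error bars, n = 3 water and n = 4 DSS). The Lyz1 to Lyz2 ratio stays between 9.75 and 11.0 in both groups, while the ratios of lysozyme to alpha-defensins and to other granule genes lie below water in all 4 DSS libraries.

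Among single genes of high level, the lysozyme changes were at the low end, while over all 17449 genes tested the log2 changes ran from -3.66 to 6.47. Of 62 genes with a mean of at least 1000 CPM, Lyz2 and Lyz1 had the lowest and second lowest log2 changes. The 33 tested members of 39 in the alpha-defensin set, pseudogenes included, ranged from -0.91 to 1.10. Their median was -0.55, against -0.0016 over all genes, and 0 passed edgeR in either direction. The lowest was the pseudogene Defa-ps17, at 17.1 CPM on water, and the lowest other member was Defa30 at -0.83. DESeq2 called 9 of the 33 as lower and 0 as higher, where it called 296 of the 17449 genes tested by edgeR as lower and 346 as higher. The 9 included the pseudogenes Defa-ps7 and Defa-ps17, named after their values were seen. Many alpha-defensin genes are almost the same in sequence and may exchange reads, which leaves their single values uncertain. The 12 other granule genes ranged from -0.66 to 0.44 with a median of -0.08, which turned to 0.15 with scaling by library totals alone, and 0 passed edgeR. That scaling moved the median of all genes to 0.23, and all changes below are relative to TMM scaling unless stated. The lowest of the 12 was Itln1, a lectin that binds microbial sugars, at 46447 ± 2378 CPM on water against 29364 ± 7578 CPM after DSS (SD, n = 3 and 4). Clps, which encodes the lipase cofactor colipase, was at -0.49 ± 0.24 and Habp2, a secreted protease, at -0.29 ± 0.16. With library totals alone Clps was at -0.28 and Habp2 at -0.07.

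**Figure D5:**
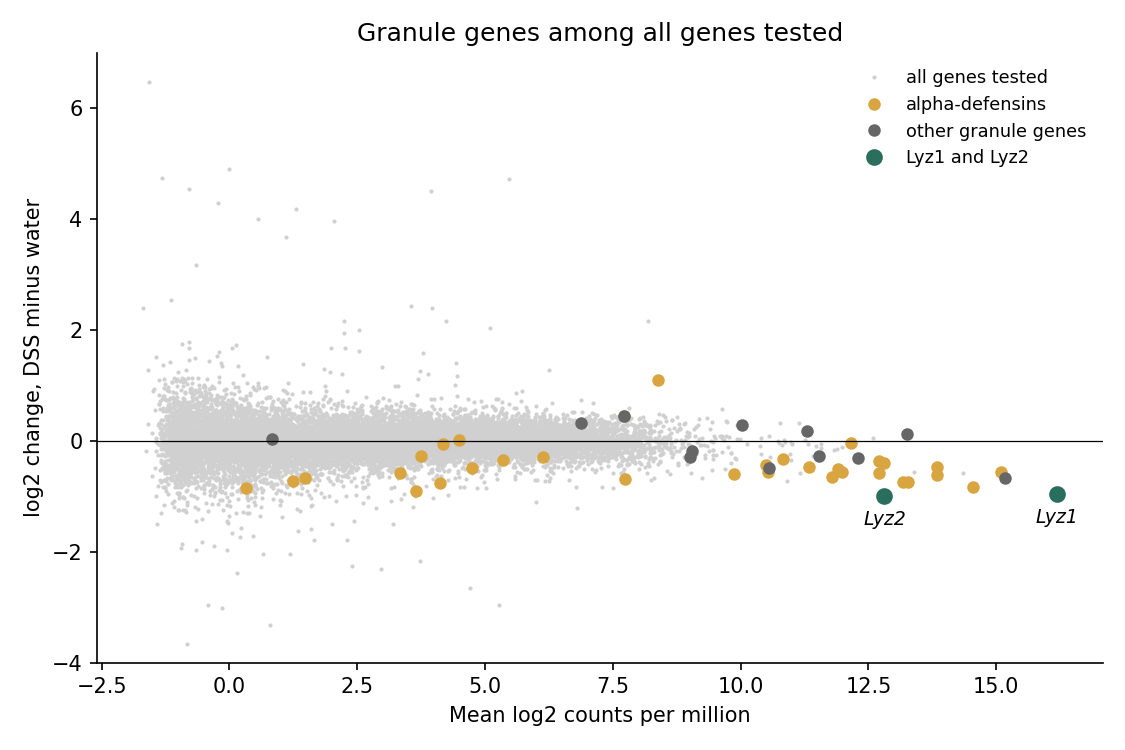
The log2 change of DSS relative to water (y axis) against the mean log2 CPM (x axis) for all 17449 genes tested, with Lyz1 and Lyz2, alpha-defensins and other granule genes marked. Lyz1 and Lyz2 sit at -0.96 and -0.99 at the high end of the level scale. They lie below the marked alpha-defensin set, which includes pseudogenes and whose lowest value is -0.91 (Defa-ps17).

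The other members of the lysozyme family were close to absent. Of 8 such genes, which include sperm lysozyme-like proteins, the milk protein alpha-lactalbumin and goose-type lysozymes, 0 passed the low-count filter and 4 had no count in any library. Lyzl4, a sperm lysozyme-like gene, had the highest mean among them, with 0.150 CPM on water and 0.238 CPM after DSS, and is named because of that value.

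In mice, Nod2, Ripk2, Lrrk2 and Rab2a are known to act in sorting lysozyme into secretory granules. Of the 3 tested, 0 passed edgeR. Rab2a, a small GTPase of early secretory vesicles, averaged 185 CPM on water against 151 CPM after DSS, with a log2 change of -0.29 ± 0.07 (edgeR adjusted p = 0.143, DESeq2 adjusted p = 0.00923). With library totals alone Rab2a was at -0.06, and the median of the 3 genes moved from 0.01 to 0.25. Nod2, which senses a peptidoglycan fragment that lysozyme can release, was low at 1.68 CPM on water against 1.69 CPM after DSS, with a log2 change of 0.0097 ± 0.16. Ripk2, the kinase downstream of Nod2, was at 0.03 ± 0.14. Lrrk2, a kinase, did not pass the filter, with means of 0.0279 CPM in water and 0 in DSS, where its count was 0 in every library and up to 3 counts each (at most 0.129 CPM) are allowed.

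Autophagy genes are known to serve lysozyme secretion in mouse Paneth cells under bacterial infection. Of 14 tested, 0 passed edgeR, 11 had log2 changes below 0, and the median was -0.19 with a range of -0.38 to 0.04. With library totals alone 6 were below 0 and the median was 0.04. Eif2ak3, the stress kinase PERK, was at -0.38 ± 0.13 (-0.16 with library totals alone). Atg5 was at -0.25 ± 0.07 and Atg3 at -0.17 ± 0.06 (-0.02 and 0.06 with library totals alone). Atg5 and Atg3 are both part of the machinery that attaches lipid to LC3. Of 8 transcription factors of Paneth and crypt base cells, 0 passed edgeR and the median was -0.0026 (0.23 with library totals alone). Xbp1, needed for a normal secretory apparatus in Paneth cells, was at -0.43 ± 0.10 (DESeq2 adjusted p = 0.00469), or -0.20 with library totals alone. Ascl2, a stem cell factor, was at 0.37 ± 0.11, and Sox9, needed for Paneth cell formation, at 0.22 ± 0.10. With library totals alone Ascl2 was at 0.61 and Sox9 at 0.44.

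Regulators known to drive lysozyme in myeloid cells gave 3 tested genes of 5, and 0 passed edgeR. Cebpa was at 0.25 ± 0.08, Cebpd at 0.68 ± 0.27 and Cebpb at 0.14 ± 0.29, all C/EBP transcription factors, with estimates opposite in sign to those of Lyz1 and Lyz2. Of 6 genes for peptidoglycan recognition, 3 were tested and 0 passed, with a median of -0.07 (0.16 with library totals alone). Pglyrp1, a peptidoglycan-binding antibacterial protein, averaged 348 CPM on water against 255 CPM after DSS, at -0.45 ± 0.16 (-0.22 with library totals alone). Nod1, a cytosolic peptidoglycan sensor, was at -0.07 ± 0.15 (0.16 with library totals alone).

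Markers of blood cells that also express Lyz2 gave little signal. The 16 macrophage and monocyte markers summed to 7.22 to 11.5 CPM in water and 7.31 to 9.76 CPM in DSS, at most 0.235% of the Lyz2 level of the same library. Of these markers 7 never exceeded 3 counts in a library, and Tyrobp was at 0 in all. The highest were Cd14 at 4.89 CPM on water against 4.20 CPM after DSS, Itgam at 1.09 and 1.55 CPM, and Cd68 at 0.853 and 1.24 CPM. The 11 neutrophil markers summed to 1.09 to 1.68 CPM in water and 1.09 to 1.27 CPM in DSS, with S100a8, Ly6g, Csf3r and Retnlg at 0 in all libraries. Their highest were Ltf at 0.893 CPM on water against 0.867 CPM after DSS, Mpo at 0.326 and 0.206 CPM, and Camp at 0.0896 and 0.0463 CPM. The sort had gated out CD45-positive cells. The part of the Lyz2 counts that came from blood cells was not tested, and marker sums do not measure it.

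Markers of other crypt cells were present in the sorts. The 8 tuft cell markers, all tested, summed to 478 to 530 CPM in water, and to 481, 905, 901 and 458 CPM in DSS 1 to 4. DESeq2 called 1 of these 8 as higher and 0 as lower. Of the 17449 genes tested by edgeR, DESeq2 called 346 as higher and 296 as lower, which is the background for every marker set here. The 8 goblet cell markers summed to 10101 to 11209 CPM in water and 8157 to 13378 CPM in DSS. Within that sum single markers differed in direction, and DESeq2 called 1 of these 8 as higher and 1 as lower. Clca1, a secreted mucus protein, averaged 97.6 CPM on water against 435 CPM after DSS (2.16 ± 0.49, edgeR adjusted p = 0.138, DESeq2 adjusted p = 0.00817), and Agr2, a disulfide isomerase needed for mucin, 998 CPM against 702 CPM (-0.51 ± 0.18, edgeR adjusted p = 0.230, DESeq2 adjusted p = 0.0426). Both were named after their values were seen. The 10 stem cell markers summed to 4452 to 5315 CPM in water and 4321 to 5295 CPM in DSS. Olfm4 alone held 2626 CPM on water against 2519 CPM after DSS. Single stem cell markers differed in direction, and DESeq2 called 1 as higher and 1 as lower. Axin2 was at 0.28 ± 0.08 (DESeq2 adjusted p = 0.0403) and Clca4a at -0.97 ± 0.27 (DESeq2 adjusted p = 0.00975). Lgr5 averaged 127 CPM on water against 78.4 CPM after DSS (-0.70 ± 0.26, edgeR adjusted p = 0.247). These were also named after their values were seen. The 8 enterocyte markers summed to 597 to 681 CPM in water and 575 to 687 CPM in DSS. The 8 enteroendocrine markers summed to 68.1 to 2642 CPM in water and 519 to 1195 CPM in DSS. Their part in the lower lysozyme level was not tested.

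Of 31 genes within 500 kb, 13 were tested and 0 passed edgeR, with log2 changes from -0.18 to 0.50 and a median of 0.04, and 10 of the 13 estimates above 0 (13 with library totals alone). DESeq2 called 2 of the 13 as higher and 0 as lower, where it called 346 of the 17449 genes tested by edgeR as higher and 296 as lower. The 2 were Cpm, a carboxypeptidase gene, at 0.50 ± 0.07 (edgeR adjusted p = 0.124, DESeq2 adjusted p = 5.89e-05) and Myrfl at 0.32 ± 0.07 (edgeR adjusted p = 0.138, DESeq2 adjusted p = 0.0107). Both were named after their values were seen. Both were above water in all 4 DSS libraries, as were 1291 of the 17449 genes tested. Yeats4, a chromatin reader 52824 bases from the Lyz2 end of the locus, was at -0.04 ± 0.07. Cpsf6, a factor of messenger RNA 3′ end processing 51805 bases beyond Lyz1, was at 0.02 ± 0.11.

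Likeness of pattern was measured as the SD, over the 7 libraries, of the log2 ratio between a gene and the lysozyme gene, so that a small SD means a nearly constant ratio. Among 10236 genes with a mean log2 CPM of at least 3, Lyz2 was the gene most like Lyz1, with an SD of 0.07. How far reads shared by these near-identical genes hold that ratio constant was not tested. Next came Bmf, a member of the BCL2 family that promotes cell death (SD 0.15), Hapln4, a matrix link protein (0.18), Six4, a homeobox transcription factor (0.20), Itln1 (0.20) and Bambi, a membrane inhibitor of BMP and TGF-beta signalling (0.20). For Lyz2, after Lyz1, they were Itln1 (0.19), the alpha-defensin Defa30 (0.19), Hapln4 (0.20), the chemokine Ccl6 (0.20) and Bmf (0.20). Bmf, Hapln4 and Six4 were low, with water means of 17.5, 19.0 and 15.4 CPM. All points share the library, so these values describe these 7 libraries only.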

How the data were processed

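Polyadenylated RNA of 7 libraries of sorted Paneth cells was measured by sequencing. The deposited values are raw read counts for each gene, made with featureCounts 1.5.3 on GENCODE release M15 exons per the file headers, counting primary alignments, requiring an overlap fraction of 0.8, with no strand option and marked duplicates not ignored. Reads matching both lysozyme genes can therefore be counted for either. Alignment to mm10 with STAR 2.5.3a, featureCounts 1.5.2 and DESeq2 are listed in the submitters' processing notes. Gene symbols came from GENCODE release M21 by identifier for 52403 of 52550 genes.

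edgeR 4.0.16 in R 4.3.3 was run on the whole table with filterByExpr, TMM and the quasi-likelihood test and no covariate. Benjamini-Hochberg adjustment ran over all 17449 genes tested, with a threshold of 0.05. CPM use TMM-scaled totals, with TMM factors of 0.899 to 0.922 in water and 0.980 to 1.14 in DSS. Ratios per length use library totals. Ratios and shares per library were compared by exact permutation of the absolute difference in group means. At these depths 3 counts correspond to 0.0924 to 0.129 CPM. DESeq2 1.42.0, run without the low-count filter, and limma 3.58.1 served as alternatives, beside other scalings, filters, an age covariate, subsets and leaving out each replicate. Steps were tested on simulated data. Sequences were aligned with Biopython 1.88.

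Replicates were numbered in accession order and pair nothing. The members and lists were chosen with earlier results of these data known. Named genes were up to 3 members of each pathway list with the smallest p, the nearest tested neighbour on each side, the 6 genes most like each lysozyme gene in pattern, leaving out predicted, clone and pseudogene symbols, and the 3 highest macrophage and neutrophil markers. Marker sums are TMM-normalised CPM. The 11 lymphocyte markers summed to 0.312 to 0.926 CPM.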

Additional observations from a re-analysis of the deposited data

Results flagged for a closer look

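Among the 4 DSS libraries, 2 of 43 series had 1 extreme library, whose gap to its neighbour divided by the group's range exceeded Dixon's 95% limit of 0.829. By chance this happens in about 5% of series. Neither was a lysozyme series. DSS 1 stood apart for Ascl2 (ratio 0.917), at 22.0 CPM against 26.2 to 26.7 CPM in the other DSS libraries. DSS 3 stood apart for Nod1 (ratio 0.833), at 10.1 CPM against 13.4 to 14.2 CPM.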

How the results depend on the processing

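Under all 19 alternatives Lyz1, Lyz2 and their sum stayed lower in DSS, from -1.35 to -0.75 for Lyz1, and each passed the threshold under 5 of them, of which the run field 6 fit has a single DSS library and says nothing of the spread within DSS. Scaling by library totals alone put the median change of all genes at 0.23, and then the log2 changes were -0.75, -0.78 and -0.75 for Lyz1, Lyz2 and the sum, so that relative to that median they lay near the main values. DESeq2 gave -0.96, -0.99 and -0.96, edgeR without a low-count filter -0.95, -0.98 and -0.96, and the run field 6 libraries -1.35, -1.28 and -1.34. Leaving out 1 library gave -1.20 to -0.84 for Lyz1, -1.19 to -0.87 for Lyz2 and -1.20 to -0.84 for the sum, and all 3 passed without DSS 1 only. Adjusted p over the alternatives ran from 0.0273 to 0.611 for Lyz1 and from 2.84e-05 to 0.573 for Lyz2. DESeq2 called 642 genes. edgeR called 0 with TMM, 2112 with library totals only (2084 higher), 441 without a low-count filter, 9 with run field 6 only, and 0 to 303 when 1 library was left out, with 303 without DSS 1 and 9 without DSS 4. The cause was not tested. The log2 ratio of Lyz1 to Lyz2, 0.02, turned to -0.0207 without water 3 and -0.011 without DSS 1, and ranged from -0.0207 to 0.0581 when 1 library was left out. The lysozyme share and both ratios to other granule genes stayed below water under all alternatives, and with 1 library left out the exact test cannot go below 0.0667 or 0.1. Robust dispersions, leaving out DSS 2 with DSS 3, and leaving out libraries from the parts of the granule share were chosen after seeing the data. The first and second gave Lyz1 at -0.96 and -0.80. No paired analysis was possible because the labels give the groups no shared replicate numbers.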
